A study of Mus musculus with 4 samples.

Results

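C-type lectin and killer lectin-like receptors were examined in mouse lung tissue as 44 genes, out of 18193 genes on the array, picked out by symbol. The genes were those whose symbol begins with Clec and a digit (26 genes) or with Klr and a letter from a to k (18 genes), and where several probe sets read a gene, the one of highest mean intensity over the 4 arrays stood for it. RNA came from 2 lung samples of mice labelled IKKa floxed and 2 of wild type mice, all of strain B6/J. All of them, wild type included, had received Cre recombinase by adenovirus into the trachea, and lungs were collected 4 months later. IKKα phosphorylates proteins of the NF-κB pathway, and Cre removes DNA flanked by loxP sites. The comparison therefore sets Cre-treated lungs with a floxed IKKα gene against Cre-treated lungs without one. Age, the promoter that drove Cre and the cells it reached are not given in the labels, nor is it said whether each array stands for its own animal, so the p-values rest on a spread between samples that may be technical. Each sample has 1 single-colour Affymetrix array, and 2 arrays a group limit the precision of every value.

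C-type lectin receptors carry a calcium-dependent sugar-binding fold or its relative. On myeloid cells, Clec receptors bind fungal and bacterial glycans or molecules of dead cells, and many signal through the kinase Syk, either directly or through the adaptor chain FcRγ. On natural killer (NK) cells and some T cells, Klr receptors read MHC class I and related ligands. Inhibitory members recruit phosphatases, and activating members pair with the adaptors DAP10 or DAP12. In lung, other Clec genes mark endothelium and platelets.

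The arrays differ in more than genotype. Xist, made from the inactive X of females, gave intensities of 4246 and 4629 in the floxed lungs, against 31.8 and 22.9 in wild type lungs, while the 3 Y-linked genes measured were low in the floxed lungs and high in wild type. Genotype and sex pattern therefore cannot be told apart in any value below. The cardiac muscle list fell in the floxed lungs for 7 of 8 genes, with a summed intensity over its measured genes of 622 and 481 against 4355 and 6403 in wild type, and the adipose list for 3 of 4 tested genes, with sums of 105 and 124 against 1033 and 764. RNA integrity, read as the Gapdh signal at the 3′ end over that at the 5′ end, gave ratios of 1.44 and 1.68 on the floxed arrays and 1.18 and 1.10 on the wild type arrays. The same ratio for actin was 2.67 and 2.77 on the floxed arrays and 2.65 and 2.46 on the wild type arrays. The part of sex, tissue makeup and RNA integrity in the results was not tested. As the RNA is from lung tissue, a change in the number of cells of a type and a change in RNA per cell cannot be told apart.

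Of the 44 genes, 28 reached the intensity needed for testing (18 Clec and 10 Klr), and 1 of them passed the test. Clec7a rose in the floxed lungs, and no gene of either family fell. A gene was tested when its mean intensity was at or above the 30th percentile of all genes, which is 20.97, and called when the adjusted p of limma, with Benjamini-Hochberg adjustment over all 12735 tested genes, was under 0.05. The same rule called 1.77% of all tested genes, 1.01% as higher and 0.762% as lower, and the members' count rests on a single gene. At an unadjusted p under 0.05, 12 of the 28 genes were higher and 3 lower, where 7.12% and 7.14% of all tested genes were (14.3% in either direction). The floxed arrays lay entirely above the wild type arrays for 8 of 18 Clec and 7 of 10 Klr genes, against 23.6% of all tested genes, and entirely below them for 4 Clec and 0 Klr genes, against 22.2%. The level for testing took the mean of all 4 arrays, so a gene could be tested through its higher group alone. Clec5a and Klra7, counted as higher here and at the unadjusted p, had wild type means of 17.6 and 20.1, below that level. The groups overlapped for 9 of the 28 genes, while 45.8% of all tested genes had groups that did not overlap. Over all 26 Clec genes, tested or not, the groups did not overlap for 9 higher and 6 lower genes, and over all 18 Klr genes for 9 higher and 2 lower, where 21.9% of all genes on the array were higher and 20.7% lower without overlap. The median log2 fold change, floxed over wild type, was 0.03 for the tested Clec genes and 0.51 for the tested Klr genes, against 4.73e-05 for all tested genes. Over every Klr gene on the array the median was 0.16.

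**Figure D1:**
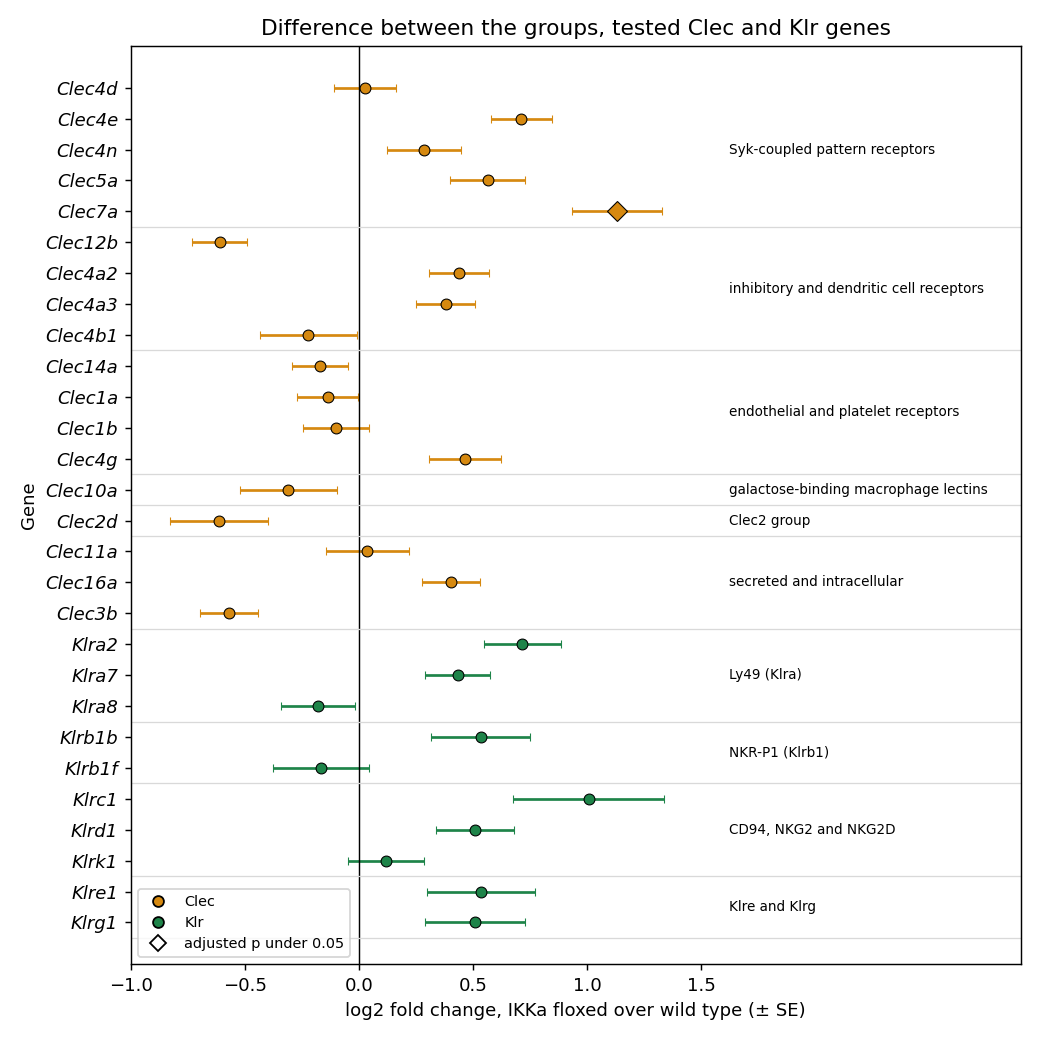
The log2 fold change (IKKa floxed over wild type, on the log2(intensity + 16) scale) with its SE is plotted for each of the 28 tested genes, ordered by role; orange marks Clec genes, green marks Klr genes and the diamond marks the gene with an adjusted p under 0.05. Clec7a lies at 1.13 and Klrc1 at 1.01 with a wider error, and the lowest genes, Clec2d and Clec12b, lie at -0.61.

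The pattern receptors coupled to Syk were the role group of Clec genes with the highest median log2 fold change. All 5 of them were tested, 4 were higher without overlap (23.6% of all tested genes were), and their median log2 fold change was 0.56. That median is the value of Clec5a, which is also among the 4. Its wild type mean of 17.6 lay below the level for testing, 20.97, so it was tested only through its floxed arrays. Clec7a encodes Dectin-1, the receptor for fungal beta-glucan on macrophages, dendritic cells and neutrophils. It had intensities of 1984 and 1318 in the floxed lungs, against 735 and 725 in wild type lungs. Both floxed arrays were high and the wild type arrays lay close together, while the floxed arrays differed from each other by 0.58 on the log2 scale. The group means were 1651 ± 471 in the floxed lungs and 730.1 ± 6.72 in wild type lungs (SD, n = 2 arrays each). The gene rose 2.19-fold on the log2(intensity + 16) scale (log2 fold change 1.13 ± 0.20 SE, limma adjusted p = 0.0487), just inside the threshold. The call was lost without floxed replicate 1 (log2 fold change 0.84, limma adjusted p = 0.0508), without wild type replicate 1 (limma adjusted p = 0.0689) and without wild type replicate 2 (limma adjusted p = 0.0913), and it held without floxed replicate 2 (log2 fold change 1.42, limma adjusted p = 0.00728). It was also lost with no filter on low genes (limma adjusted p = 0.160), with a pseudocount of 1 (0.128) and after quantile normalization (0.0526). The direction was the same in all 12 alternatives, and the call held in 6 of them.

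Clec4e encodes Mincle, which binds mycobacterial glycolipid and a protein released by dying cells. Its intensities were 73.8 and 60.2 in the floxed lungs and 33.6 and 35.5 in wild type lungs, which do not overlap. The log2 fold change was 0.71 ± 0.13 SE (limma adjusted p = 0.0585), just outside the threshold, and the fit without floxed replicate 2 called it (limma adjusted p = 0.0468). A second, dimmer probe set of the gene gave 0.13. Clec5a encodes MDL-1, a DAP12-coupled receptor of monocytes and neutrophils, and had 38.0 and 29.2 in the floxed lungs, against 21.7 and 13.6 in wild type (log2 fold change 0.56 ± 0.17 SE, limma adjusted p = 0.189). Clec4n, or Dectin-2, the FcRγ-coupled receptor for fungal mannan, had 296 and 219 against 214 and 199 in wild type (0.28 ± 0.16 SE, limma adjusted p = 0.501), with its other probe set at 0.55. Both of these had all floxed values above all wild type values and did not pass the test. Clec4d, which encodes MCL, the partner of Mincle, had 61.3 and 55.9 in the floxed lungs and 63.8 and 51.3 in wild type lungs, so its groups overlapped (0.02 ± 0.14 SE, limma adjusted p = 0.959). Mincle and its partner thus had estimates of different size on these probe sets, a difference that was not itself tested. The dimmer Clec4e probe set, at 0.13, lay nearer to Clec4d. The probe sets used for Clec4d and Clec4n carry the platform's s suffix, which marks probes that may read several transcripts.

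Promoter windows of Clec7a, of the Syk-coupled genes with the next largest moderated t, Clec4e and Clec5a, and of the Klr gene with the largest, Klra2, are shown for sequence context; of these 4 genes only Clec7a passed the test, and Clec5a and Klra2 were dim. They come from RefSeq, build GRCm38.p6, and run from 250 bases before to 50 bases after an annotated start, on the strand of the gene (minus for all 4). Capitals mark matches to the PU.1 box GAGGAA or its reverse complement TTCCTC, and to the AP-1 site TGANTCA, which reads the same on either strand. A second annotated start of Clec7a gives a window that overlaps the one shown. PU.1 is a transcription factor of myeloid cells, and AP-1 sites bind Fos and Jun.
Clec7a, chr6:129472730-129473029: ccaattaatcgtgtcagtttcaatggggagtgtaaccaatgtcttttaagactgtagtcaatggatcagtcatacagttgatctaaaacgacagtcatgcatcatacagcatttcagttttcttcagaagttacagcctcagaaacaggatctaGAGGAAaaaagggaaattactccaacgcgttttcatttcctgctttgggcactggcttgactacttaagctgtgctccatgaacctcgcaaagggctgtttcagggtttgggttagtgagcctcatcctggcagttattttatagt
Clec4e, chr6:123289822-123290121: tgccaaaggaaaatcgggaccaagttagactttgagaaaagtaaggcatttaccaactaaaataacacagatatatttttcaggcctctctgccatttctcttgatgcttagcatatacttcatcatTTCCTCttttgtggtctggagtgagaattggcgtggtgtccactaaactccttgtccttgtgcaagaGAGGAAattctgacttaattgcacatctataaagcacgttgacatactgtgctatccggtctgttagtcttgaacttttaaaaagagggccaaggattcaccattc
Clec5a, chr6:40585756-40586055: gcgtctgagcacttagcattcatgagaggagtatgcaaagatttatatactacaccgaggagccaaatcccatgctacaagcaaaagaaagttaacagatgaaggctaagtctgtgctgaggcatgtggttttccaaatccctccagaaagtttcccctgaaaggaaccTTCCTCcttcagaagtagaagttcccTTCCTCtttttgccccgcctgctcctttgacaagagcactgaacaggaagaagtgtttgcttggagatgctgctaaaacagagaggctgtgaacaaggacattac
Klra2, chr6:131247313-131247612: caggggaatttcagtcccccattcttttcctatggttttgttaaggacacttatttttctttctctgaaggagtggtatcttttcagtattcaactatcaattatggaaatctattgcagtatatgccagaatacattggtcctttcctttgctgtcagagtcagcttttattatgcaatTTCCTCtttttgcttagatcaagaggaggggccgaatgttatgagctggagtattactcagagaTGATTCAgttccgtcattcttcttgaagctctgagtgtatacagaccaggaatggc
The Clec7a window holds 1 PU.1 box, starting at position -96 from the annotated start, and those of Clec4e (positions -123 and -56) and Clec5a (-81 and -55) hold 2 each. The Klra2 window holds 1 PU.1 box at -70 and an AP-1 site at -6. Of 32851 windows of this length, 28.3% hold a PU.1 box and 7.81% an AP-1 site, and of the 45 windows matched to 37 of the 44 genes, 53.3% and 22.2% do, where several windows of a gene overlap. The interferon response core (GAAA, any 2 bases, GAAA) was in 6.67% of the genes' windows and 3.44% of all windows, and the NF-κB frame (GGGA, any 4 bases, CC) in 8.89% of the genes' windows and 20.7% of all, each searched on both strands. Neither was found in the 4 windows shown. A match is a run of letters and says nothing of binding.

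Receptors of dendritic cells and inhibitory receptors gave values on both sides of 0. Clec4a2, which encodes the inhibitory dendritic cell receptor DCIR, had intensities of 154 and 130 in the floxed lungs, against 97.0 and 104 in wild type lungs, with no overlap (log2 fold change 0.44 ± 0.13 SE, limma adjusted p = 0.195). Its relative Clec4a3 had 245 and 213 against 178 and 165 in wild type (0.38 ± 0.13 SE, limma adjusted p = 0.249). Both were higher on each floxed array, and neither passed the test. Clec4b1, which encodes the activating relative DCAR, had 83.8 and 48.2 in the floxed lungs and 73.1 and 81.8 in wild type lungs, so its 2 floxed arrays lay on either side of wild type. Clec12b, an inhibitory receptor of myeloid cells, had 33.9 and 30.02 in the floxed lungs, against 58.1 and 56.4 in wild type. Its groups were tight and apart (log2 fold change -0.61 ± 0.12 SE), and the limma adjusted p was 0.0680. Clec10a, the galactose-binding macrophage lectin MGL1, had 46.5 and 41.6 against 76.9 and 43.6 in wild type, where a single wild type array was high (-0.31 ± 0.21 SE, limma adjusted p = 0.571).

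Clec genes of the vessel wall and of platelets did not pass the test. Clec14a, an endothelial receptor of the vessel wall, had intensities of 1712 and 1639 in the floxed lungs and 1997 and 1785 in wild type lungs (log2 fold change -0.17 ± 0.12 SE, limma adjusted p = 0.600), with its other probe set at -0.46. Clec1a, an endothelial receptor for fungal melanin, had 866 and 820 against 1010 and 854 in wild type (-0.14 ± 0.13 SE). Clec1b, the platelet receptor CLEC-2 for podoplanin, had 179 and 152 against 163 and 195 in wild type (-0.10 ± 0.14 SE). Of these 3 only Clec14a had groups that did not overlap. Clec4g, known from endothelium of liver sinusoids, had 71.4 and 52.5 in the floxed lungs, against 43.6 and 36.6 in wild type (0.47 ± 0.16 SE, limma adjusted p = 0.249). Beside them, 0 of 12 endothelial marker genes passed (sums of 15723 and 16893 in the floxed lungs, 14161 and 15194 in wild type lungs). At an unadjusted p under 0.05, 3 of the 12 were higher in the floxed lungs and 0 lower, where 7.12% and 7.14% of all tested genes were. Of 8 platelet marker genes tested, 0 passed, 6 were lower without overlap and 5 had an unadjusted p under 0.05. The list sums were 854 and 743 against 1070 and 1291 in wild type. Over all tested genes, 22.2% were lower without overlap and 14.3% had an unadjusted p under 0.05. Podoplanin, Pdpn, had 1075 and 1072 against 1642 and 1859 in wild type (-0.69 ± 0.13 SE, limma adjusted p = 0.0525).

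The remaining Clec genes encode ligands and secreted proteins. Clec2d encodes Clr-b, a ligand on many cells for the NK receptor encoded by Klrb1b. It had intensities of 611 and 758 in the floxed lungs, against 1292 and 852 in wild type (log2 fold change -0.61 ± 0.22 SE, limma adjusted p = 0.265). The floxed arrays were lower and the wild type arrays stood far apart. Clec3b, which encodes tetranectin, a secreted protein that binds plasminogen, had 217 and 251 against 348 and 361 in wild type (-0.57 ± 0.13 SE, limma adjusted p = 0.102), and a pseudocount of 64 or an intensity trend with a robust prior called it (limma adjusted p = 0.0324 and 0.0299). Clec16a, an intracellular regulator of mitophagy that is no surface receptor, had 74.5 and 85.4 in the floxed lungs, against 58.8 and 54.1 in wild type (0.40 ± 0.13 SE, limma adjusted p = 0.215), while its other probe set gave 0.0039. Clec11a, a secreted growth factor of bone and blood stem cells, had 136 and 93.7 in the floxed lungs and 119 and 102 in wild type lungs, which overlap.

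**Figure D2:**
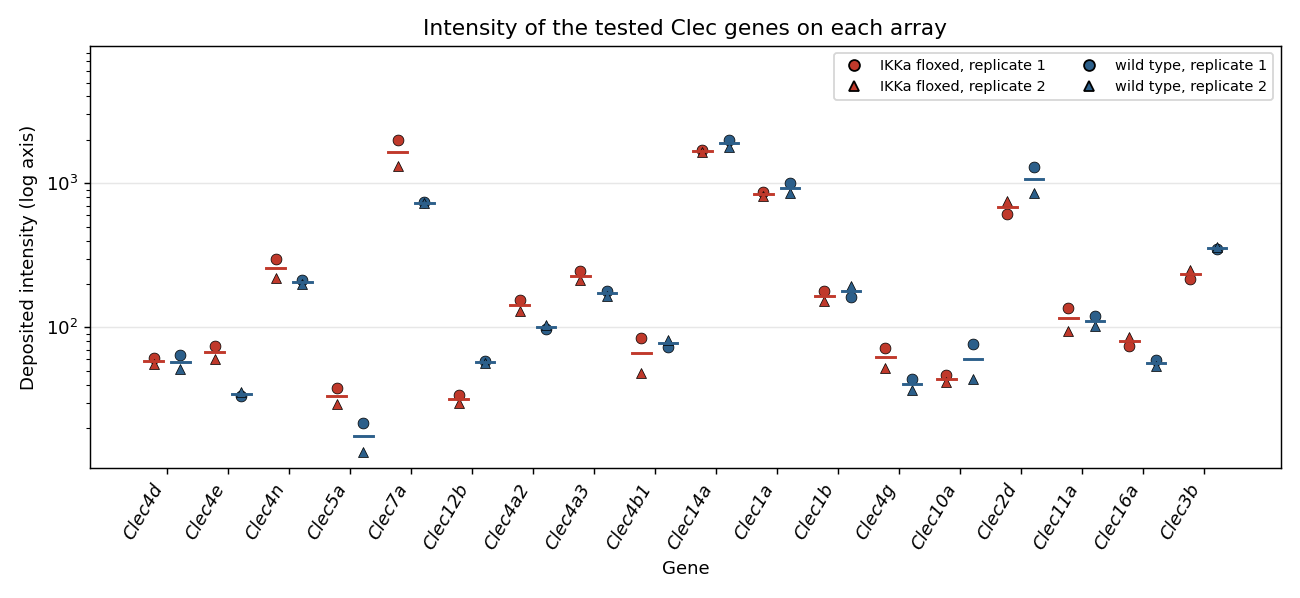
Deposited intensity on a log axis is plotted for the 18 tested Clec genes, with the 2 floxed arrays (red) left of the 2 wild type arrays (blue) and a line at each group's mean; circles are replicate 1 and triangles replicate 2. Clec7a stands at 1984 and 1318 in the floxed lungs, apart from 735 and 725 in wild type, while Clec4b1 has its floxed arrays on either side of wild type.

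Killer lectin-like receptors were mostly higher in the floxed lungs, but 0 of 10 tested genes passed the limma test. At an unadjusted p under 0.05, 5 were higher and 0 lower, where 7.12% and 7.14% of all tested genes were. They were higher on floxed replicate 1 than on floxed replicate 2 for 10 of 10 genes, where 51% of all tested genes were, and higher on wild type replicate 1 than on replicate 2 for 7 of 10, where 51.3% were. Relative to the wild type mean, the median of the 10 genes was 0.73 on floxed replicate 1 and 0.27 on floxed replicate 2, and 0.11 and -0.11 on the wild type arrays, in log2 units. The estimates therefore rest more on 1 floxed array than on the other, and the median log2 fold change was 0.27 without floxed replicate 1 and 0.73 without floxed replicate 2.

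CD94, its NKG2 partners and NKG2D differed among themselves, with Klrc1 at the top of the tested Klr genes, Klrd1 at their median and Klrk1 near the low end. Klrc1 encodes NKG2A, the inhibitory chain that pairs with CD94 and reads the MHC molecule Qa-1. It had intensities of 126 and 49.96 in the floxed lungs, against 36.3 and 28.4 in wild type lungs. Both floxed values were above wild type, and a single floxed array stood far above the rest. The log2 fold change was 1.01 ± 0.33 SE (limma adjusted p = 0.239), and it was 1.56 without floxed replicate 2 (limma adjusted p = 0.00909) and 0.45 without floxed replicate 1 (limma adjusted p = 0.253). The gene's other, dimmer probe set gave -0.23. Klrd1, which encodes CD94 itself, had 279 and 206 against 177 and 152 in wild type (0.51 ± 0.17 SE, limma adjusted p = 0.244). Klrk1 encodes NKG2D, the activating receptor for stress-induced ligands, and had 72.5 and 49.2 in the floxed lungs and 53.4 and 54.7 in wild type lungs, which overlap (0.12 ± 0.17 SE, limma adjusted p = 0.807). The other partners, Klrc2 and Klrc3, were below the level for testing, at intensities of 0.204 to 4.04 on the 4 arrays.

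Among the Ly49 receptors, which read MHC class I, 3 of 7 genes were tested. Klra2, or Ly49B, an inhibitory receptor found on myeloid cells, had intensities of 61.3 and 44.8 in the floxed lungs, against 30.1 and 21.8 in wild type lungs. Its groups did not overlap, and of the Klr genes it had the largest moderated t (log2 fold change 0.72 ± 0.17 SE, limma adjusted p = 0.117). Klra7, or Ly49G, an inhibitory receptor, had 36.3 and 29.2 against 22.9 and 17.3 in wild type (0.43 ± 0.14 SE, limma adjusted p = 0.239). Klra8, or Ly49H, the activating receptor that recognises a cytomegalovirus protein, had 66.4 and 56.7 in the floxed lungs and 83.7 and 61.0 in wild type lungs, which overlap (-0.18 ± 0.16 SE, limma adjusted p = 0.678). The probe sets of Klra7 and Klra8 carry the platform's x suffix, which marks probes that may bind other transcripts, and Ly49 genes are close copies of each other, so which gene each of them reads is uncertain. Klra1, Klra5, Klra16 and Klra17 stood at 3.37 to 20.4 on all arrays and were not tested.

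The other Klr genes include receptors that bind Clec2 proteins and cadherins. Klrb1b, the inhibitory receptor NKR-P1B that binds Clr-b, had intensities of 127 and 89.3 in the floxed lungs, against 85.2 and 54.99 in wild type lungs (log2 fold change 0.53 ± 0.22 SE, limma adjusted p = 0.337). Its 5 probe sets ran from 0.13 to 0.53, all above 0. Those at 0.47 and 0.13 carry the s and x suffixes and may read other transcripts. The probe set at 0.21 was dim, with a mean intensity of 16.7. The ligand gene of Klrb1b, Clec2d, had the opposite sign, at -0.61, and neither gene passed the test. Klrb1f, whose protein binds the Clec2i product Clr-g, had 38.0 and 19.4 against 29.7 and 36.7 in wild type, with its floxed arrays on either side of wild type and its other, dimmer probe set at 0.22. Klrg1, an inhibitory receptor of mature NK and effector T cells that binds cadherins, had 94.1 and 60.2 in the floxed lungs, against 58.8 and 39.5 in wild type (0.51 ± 0.22 SE, limma adjusted p = 0.364). Klre1, a receptor of NK cells, had 75.6 and 38.8 against 30.2 and 35.7 in wild type (0.53 ± 0.24 SE, limma adjusted p = 0.377), and the fit without floxed replicate 2 called it (limma adjusted p = 0.0448). Both of these had their second floxed array close to the upper wild type array.

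**Figure D3:**
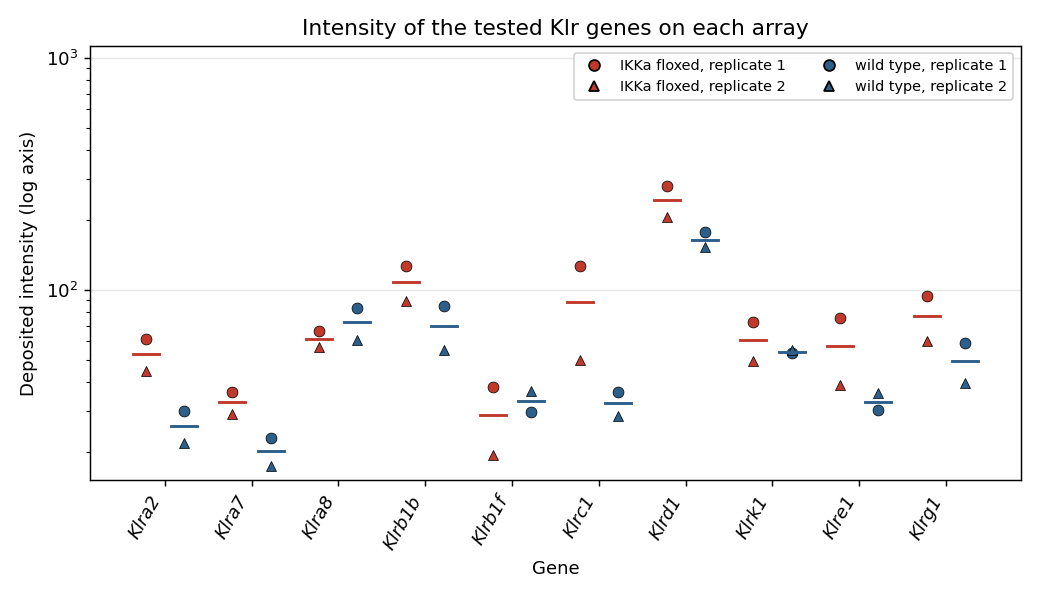
Deposited intensity on a log axis is plotted for the 10 tested Klr genes, with the 2 floxed arrays (red) left of the 2 wild type arrays (blue) and a line at each group's mean; circles are replicate 1 and triangles replicate 2. The circle lies above the triangle for each floxed pair, the widest gap being that of Klrc1, at 126 and 49.96.

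Markers of the cells that carry Klr receptors were measured on the same arrays. Of 11 NK and cytotoxic genes tested outside the Klr family, 2 rose and 0 fell by the limma test (without adjustment, 6 were higher and 0 lower at p under 0.05), with sums over the list's measured genes of 1272 and 931 in the floxed lungs, against 721 and 626 in wild type, and a median log2 fold change of 0.48. The genes that rose were Nkg7, a protein of cytotoxic granules, at 156 and 119 against 58.1 and 41.5 in wild type (1.22 ± 0.18 SE, limma adjusted p = 0.0273), and Il2rb, the beta chain shared by receptors of interleukin 2 and 15, at 63.3 and 57.2 against 9.08 and 21.8 in wild type (1.31 ± 0.20 SE, limma adjusted p = 0.0320). Il2rb had a wild type mean of 15.4, below the level for testing, so it was tested only through its floxed arrays. Ncr1, the receptor NKp46 that defines NK cells, had 27.5 and 14.3 in the floxed lungs and 25.01 and 20.3 in wild type lungs, which overlap (-0.09 ± 0.19 SE, limma adjusted p = 0.880). Prf1, or perforin, and Itga2 also overlapped between groups, at -0.17 and -0.11. Ncr1 and Itga2 lay close to the level for testing, where the scale used understates changes. Tbx21, Xcl1 and Gzma were higher without overlap, at 0.70, 0.48 and 0.62, and did not pass the test. Xcl1 too had a wild type mean below the level for testing, at 19.6. Of the 11 genes, 7 lay above 0 and 4 below. Of 9 T cell genes tested, 4 rose (Cd3g, Cd5, Cd8b1 and Icos) and 9 were higher without overlap. Cd5, with a wild type mean of 19.6, was also tested only through its floxed arrays. The T cell list sums were 1177 and 921 against 520 and 504 in wild type. Over all tested genes, 1.01% were called higher and 23.6% were higher without overlap. At an unadjusted p under 0.05, 7.12% of all tested genes were higher. The NK list was higher on floxed replicate 1 than on floxed replicate 2 for 10 of 11 genes and the T cell list for 8 of 9. Cd7, Itgam, Txk, Cd3e, Cd4 and Cd6 were below the level for testing. The share of NK cells and of T cells in the Klr values was not tested.

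**Figure D4:**
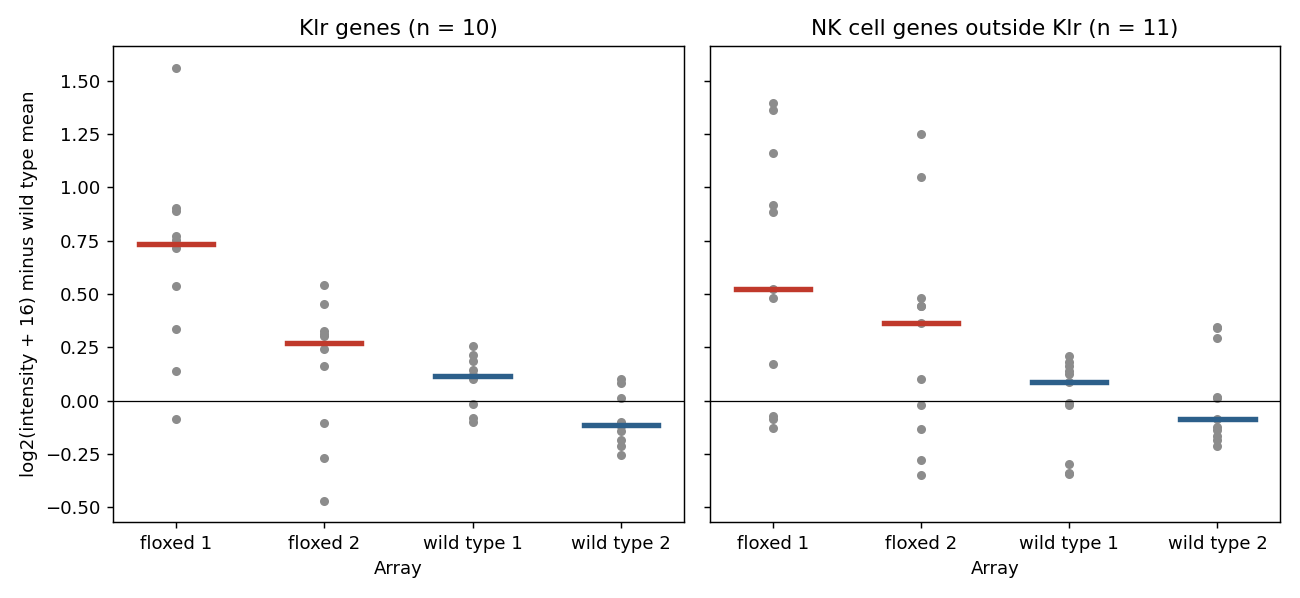
For each array, log2(intensity + 16) minus the mean of the 2 wild type arrays is plotted for the 10 tested Klr genes (left) and 11 NK cell genes outside the family (right); each grey point is a gene and each bar the median on that array, red for floxed and blue for wild type. The Klr medians are 0.73 and 0.27 on the floxed arrays, and those of the NK list are 0.52 and 0.37.

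Myeloid markers were read beside the Syk-coupled Clec genes. Among 12 monocyte and interstitial macrophage genes tested, C1qb, Fcgr1 and Fcgr4 rose. That list had sums of 8456 and 7035 in the floxed lungs, against 6234 and 5870 in wild type. Among 13 dendritic cell genes tested, Bst2, Cd74 and H2-Ab1 rose, 12 lay above 0 and Cd209a lay below, at -0.27. Zbtb46 was near 0, at 0.02, with overlapping groups. Flt3, Xcr1 and Batf3 stood at 0.53, 0.36 and 0.36 and did not pass the test (limma adjusted p = 0.158, 0.356 and 0.376). The dendritic cell list had sums of 8507 and 7286 against 4443 and 3697 in wild type. Much of these sums was H2-Ab1, at 4221 and 3381 against 2068 and 1607 in wild type. Alveolar macrophage genes rose for 1 of 10, Marco, a scavenger receptor, and 3 of the 10 lay below 0 (sums of 16857 and 15522 against 12480 and 13168 in wild type). Neutrophil genes rose for 0 of 5 and fell for 1, Ltf, with sums of 1011 and 609 against 924 and 1131 in wild type, and Camp, Cxcr2 and Ngp were below the level for testing. Of 14 other myeloid receptor genes, chosen to stand beside the Clec genes, 3 rose (Trem2 and, also in the monocyte list, Fcgr1 and Fcgr4) and 0 fell, with a median of 0.36. Trem2 had a wild type mean of 11.9, below the level for testing, and was tested only through its floxed arrays. Over all tested genes, 1.01% were called higher and 0.762% lower. The part of cell numbers in the Clec values was not tested. Clec4f, a marker of Kupffer cells in liver, had 12.4 and 20.5 in the floxed lungs and 23.6 and 10.9 in wild type lungs, below the level for testing, and among the 4 tested genes of the list for liver sinusoids and Kupffer cells only Marco rose.

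Signalling partners of both families were also read. Of 14 genes for adaptors, kinases, phosphatases and other signalling proteins, 0 passed the limma test and 8 had an unadjusted p under 0.05. Higher without overlap were 13, and the median log2 fold change was 0.35. Over all tested genes, 14.3% had an unadjusted p under 0.05 and 23.6% were higher without overlap. For the calls given here, the shares over all tested genes were 1.01% higher and 0.762% lower. Fcer1g, the FcRγ chain used by Mincle and Dectin-2, had 970 and 618 in the floxed lungs, against 369 and 391 in wild type lungs (1.00 ± 0.21 SE, limma adjusted p = 0.0869). Hcst, or DAP10, the partner of NKG2D, stood at 0.64 ± 0.21 SE, and Tyrobp, or DAP12, at 0.51 ± 0.17 SE (limma adjusted p = 0.225 and 0.241). Syk stood at 0.18 ± 0.12 SE, with 125 and 127 against 108 and 111 in wild type. Of 6 ligand genes of Klr receptors tested, 0 passed, and 3 higher and 2 lower genes had an unadjusted p under 0.05. H2-K1, a classical MHC class I gene, had 10938 and 8133 against 5165 and 4666 in wild type (0.94 ± 0.17 SE, limma adjusted p = 0.0523), and H60c, a ligand of NKG2D, had 37.6 and 31.8 against 50.8 and 50.6 in wild type (-0.40 ± 0.12 SE, limma adjusted p = 0.213). Of 10 ligands and targets of Clec receptors tested, 1 rose. This was Il12b, a subunit of interleukin 12 and interleukin 23, at 49.9 and 48.6 against 18.7 and 20.9 in wild type (0.87 ± 0.12 SE, limma adjusted p = 0.0210). Its wild type mean of 19.8 lay below the level for testing, so it was tested only through its floxed arrays. Among 29 other genes of the C-type lectin fold outside both families, 1 rose and 1 fell, the eosinophil protein gene Prg2 (1.90) and the antibacterial lectin gene Reg3g (-3.59), and the median of the 29 was 0.05. Prg2, with a wild type mean of 5.94, and Reg3g, with a floxed mean of 3.23, were each tested through the higher group alone.

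The genes share a place in the genome that the symbols did not use. Of the 44, 37 lie on chromosome 6 in the RefSeq annotation. From Clec4a3 to Clec4e, 6 of the genes follow each other with 0 other genes on the array between them, and from Klrb1a to Klra2 there are 25, of which 14 were tested. Neighbours differed in sign there. In the order of the chromosome, Clec12b, Clec1b, Clec1a and Clec7a had log2 fold changes of -0.61, -0.10, -0.14 and 1.13, of which only Clec7a was called. In the same stretch 6 other genes were tested and 0 passed, with values from -0.59 to 0.35. At an unadjusted p under 0.05 there was 1 of these 6, where 14.3% of all tested genes were. Among the 6 genes, Olr1, which encodes the lectin-like receptor of oxidised lipoprotein next to Clec7a, had 0.19 ± 0.12 SE. Cd69, an activation marker of lymphocytes, had 0.35 ± 0.21 SE.

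The 16 genes below the level for testing were Clec2e, Clec2g, Clec2h, Clec2i, Clec2l, Clec2m, Clec4f, Clec18a, Klra1, Klra5, Klra16, Klra17, Klrb1a, Klrc2, Klrc3 and Klrg2. They lay at intensities of 0.355 to 27.3 (8 Clec) and 0.204 to 20.4 (8 Klr) on single arrays. Their log2 differences ran from -0.53 to 0.35 for Clec and from -0.22 to 0.29 for Klr. Of the untested Clec genes, 6 belong to the Clec2 group, where Clec2h had 3.99 and 17.0 in the floxed lungs, against 21.3 and 21.0 in wild type. The genes nearest to the level on either side were Clec2e and Clec2i, with means of 18.9 and 19.3 over the 4 arrays, and Clec5a and Klra7, with 25.6 and 26.4. The deposited values have no stated floor, so differences at these intensities were given no test.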

How the data were processed

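Total RNA from 4 lung samples was hybridised to Affymetrix arrays, and the titles gave group and replicate number. The deposited values are intensities on a linear scale. Per the submitters' processing notes the authors used Affymetrix Expression Console; the summarisation algorithm and version were not stated there. With 2% of probe sets trimmed from each end, the deposited mean intensity was 150.001 on each array, so values had been scaled alike.

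Control probe sets (64) were left out, and 34945 probe sets with 1 symbol in the platform annotation gave 18193 genes, each by its probe set of highest mean. A further 932 had several symbols and 9160 none. Symbols were checked through Entrez numbers against RefSeq (GRCm38.p6), where 34741 matched and 0 changed. Array medians differed by at most 0.0646 on the log2 scale, so no normalization was added. log2(intensity + 16) was fitted with limma 3.58.1 in R 4.3.3 (lmFit, eBayes, two-sided, no covariates), which understates the change of low genes. An exact permutation test of 2 against 2 cannot go below p = 0.333, so none is given. The targeted gene is not analysed here. The procedure was tested on simulated data, with 2 arrays a group and spreads drawn from the fitted prior. It recovered 6.8% of 1.5-fold changes, 75% of 2-fold changes and 99.6% of 4-fold changes. A gene that did not pass may therefore still have changed, by less than 2-fold or by 2-fold and more. Klrc1, for example, did not pass at a log2 fold change of 1.01.

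The members and gene lists were chosen with earlier results of these data known. Named genes are all members, and called list members with up to 3 others. Full statistics are given for called members and the 8 Clec and 8 Klr genes of largest moderated t. Further list genes (Ncr1, Itga2, Prf1, Zbtb46, Flt3, Xcr1, Batf3, Cd209a, Hcst, Tyrobp, Syk, H60c, Olr1, Cd69) were named after their values were seen. Alternatives were the pseudocount, the filter, normalization, the prior, the mean of probe sets, a replicate block and leaving out each array.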

Additional observations from a re-analysis of the deposited data

Results flagged for a closer look

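A probe set annotated to both Clec4b1 and Clec4a2 was outside the comparisons, as it names no single gene. It had intensities of 172 and 121 in the floxed lungs, against 95.2 and 81.2 in wild type lungs, a log2 difference of 0.63 that was not tested, with each floxed array above both wild type arrays. The probe sets of Clec4a2 and Clec4b1 alone stood at 0.44 and -0.22.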

How the results depend on the processing

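Over all genes, 225 were called, against 110 with a pseudocount of 1, 362 with a pseudocount of 64, 69 with no filter and 388 under the trended, robust prior. Of the Clec genes, 1 was called, against 0 with a pseudocount of 1, 0 with no filter, 0 after quantile normalization, and 2 each with a pseudocount of 64, under the trended, robust prior (Clec3b joins Clec7a in both) and with the mean of all probe sets (Clec12b joins it, limma adjusted p = 0.0461). The Klr median was 0.16 with no filter, which adds the 8 genes of low intensity. With an array left out, calls ran from 145 (without wild type replicate 2) to 251 over all genes, from 0 to 2 of the Clec genes and from 0 to 2 of the Klr genes (Klrc1 and Klre1, without floxed replicate 2), and medians from -0.10 to 0.18 for Clec and 0.27 to 0.73 for Klr. The cause of these shifts was not tested. With the replicate number as a block, 198 genes were called, 1 of them Clec and 0 Klr, and no call of either family changed. Same-numbered samples had deviations from their group means that correlated at 0.0021 across genes. The labels do not say whether the numbers pair the arrays, and a single correlation cannot settle it.

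Some genes changed sign, not all of them near 0. Clec10a stood at -0.31 and Clec4b1 at -0.22 in the main fit. With the mean of its probe sets Klrb1f stood at 0.029. With an array left out, log2 fold changes ran from -0.63 to 0.010 for Clec10a, -0.20 to 0.27 for Clec11a, -0.22 to 0.016 for Clec1b, -0.54 to 0.10 for Clec4b1, -0.10 to 0.15 for Clec4d, -0.37 to 0.0078 for Klra8, -0.47 to 0.14 for Klrb1f and -0.10 to 0.34 for Klrk1. Over the 28 tested genes and their alternatives, 296 values kept direction and call, 12 changed sign, 6 lost the call and 6 gained it. Low intensities carry no detection calls, which limits the Ly49 and Clec2 genes.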

Other observations

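Other probe sets shared by 2 Klr genes were read as values only. That of Klra9 and Klra3 had intensities of 218 and 112 in the floxed lungs and 147 and 125 in wild type lungs, so its floxed arrays lay on either side of wild type. That of Klrb1b and Klrb1c had 26.3 and 21.9 against 20.2 and 12.2 in wild type, and that of Klrc3 and Klrc2 had 11.7 and 11.3 against 11.5 and 9.85 in wild type. The one of Klra22 and Klra1 was at 1.29 or lower on every array.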
